A study of Homo sapiens with 9 samples.

Results

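Control MDA-MB-231 cells that carry a non-targeting hairpin, shNT, give 3 of the 9 libraries of a study of UGDH, and their baseline transcriptome is described here with no contrast between groups. The 3 libraries were chosen by their labels as shNT replicates 1, 2 and 3, and each gene's count was divided by the sum of its library to give CPM, its counts in every 1000000 counts of the library. The other 6 libraries carry 1 of 2 hairpins against UGDH, shUGDH-1 or shUGDH-2, with 3 libraries each. All of these cells received lentiviral particles with a pGIPZ vector and grew in DMEM medium with 5% FBS, so the shNT libraries describe transduced cells and not the parental line. The cells were lifted with trypsin, RNA was purified with an RNeasy kit, and 200 ng of RNA entered each mRNA library, which was read as pairs of 76 bases. The labels call the samples biological replicates and do not say whether they were transduced separately, so each SD below measures the spread between these 3 libraries only.

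The hairpin is the agent that all 3 libraries share, and its sequence is shown for that reason.
shNT hairpin: atctcgcttgggcgagagtaag
In GENCODE release 29, 0 of 206694 transcripts held these 22 bases, on either strand.

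MDA-MB-231 is a human breast cancer line grown from a pleural effusion, widely used as a model of invasive, mesenchymal breast cancer. It is known as triple-negative, meaning that the tumour cells lack oestrogen and progesterone receptors and ERBB2 amplification, and it is often placed in the claudin-low subtype. The line is known to carry mutant BRAF and a homozygous deletion of CDKN2A. UGDH oxidises UDP-glucose to UDP-glucuronate, the sugar donor for glycosaminoglycans such as hyaluronan. Paralogs are gene copies that arose by duplication, and a tissue often uses a few of them while the rest stay silent.

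The libraries held 12988061, 11748428 and 11714730 counts over 23710 gene entries, and 15133, 15062 and 15103 entries had a count. At 1 CPM, the limit used below for an expressed gene, a gene had about 13 counts in replicate 1 and 11.7 in the other libraries. Replicate 1 stood apart from replicates 2 and 3. Over genes with a mean of at least 10 CPM, the variance between replicates 2 and 3 was on average 1.29 times what counting alone gives, against 2.15 times between replicates 1 and 2 and 2.11 times between 1 and 3. The difference ran with base composition: in the fifth of genes with the lowest transcript GC content, replicate 1 lay 0.076 above the other libraries on the log2 scale (median), and in the fifth with the highest the median difference was -0.030.

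Of the 23710 entries, 11940 (50.4%) reached 1 CPM in all 3 libraries and held 99.88% of the counts. Another 466 reached it in 1 or 2 libraries, 3782 were counted but stayed under 1 CPM, and 7522 (31.7%) had no count in any library. Without replicate 1 these numbers were 12017 expressed genes and 7931 with no count. A count of 0 over the 3 libraries together allows a level of up to 0.0823 CPM, and this limit covers counting error only. Protein-coding genes made up 11354 of the expressed genes, out of 18814 measured, and held 98.81% of the counts. Long non-coding RNA genes contributed 190 expressed genes of 1262 and 0.36% of the counts. The median level of an expressed gene was 34.6 CPM.

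The 10 most abundant genes held 4.50% ± 0.03 of all counts (mean ± SD, n = 3, here and below), the top 100 held 16.5% ± 0.13, and the top 1000 held 49.3% ± 0.17. ACTB, cytoplasmic beta actin, ranked first with 9467, 9645 and 9385 CPM (9499 ± 133). FLNA, the actin cross-linker filamin A, followed with 5996, 6044 and 6018 CPM. THBS1, the secreted matrix glycoprotein thrombospondin 1, had 5458, 5442 and 5408 CPM. These values are shares of all counts, which a long transcript such as that of FLNA raises, and the ranges of the 3 genes over the libraries did not overlap.

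Other genes followed among the 20 highest by CPM. PLEC, a linker of intermediate filaments, stood at 2813 ± 9.0 CPM, and MYH9, the non-muscle myosin heavy chain, at 2791 ± 23.6 CPM. CYR61, a matricellular target gene of YAP, had 2763 ± 61.0 CPM, and TGM2, tissue transglutaminase, had 2683 ± 21.2 CPM. The CPM ranges of PLEC and MYH9 overlapped.

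Per kilobase of transcript, the scale on which genes can be compared with each other, short transcripts moved up. ACTB stayed first at 5242 ± 73.4 CPM per kilobase. S100A6, a small calcium-binding protein, came next at 2901 ± 43.9, followed by FTL, the light subunit of the iron store ferritin, at 2815 ± 74.4 CPM per kilobase. The actin-sequestering thymosins TMSB10 and TMSB4X had 1815 ± 57.1 and 1693 ± 38.5 CPM per kilobase. The lists of 20 by CPM and by CPM per kilobase shared 10 genes.

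**Figure D1:**
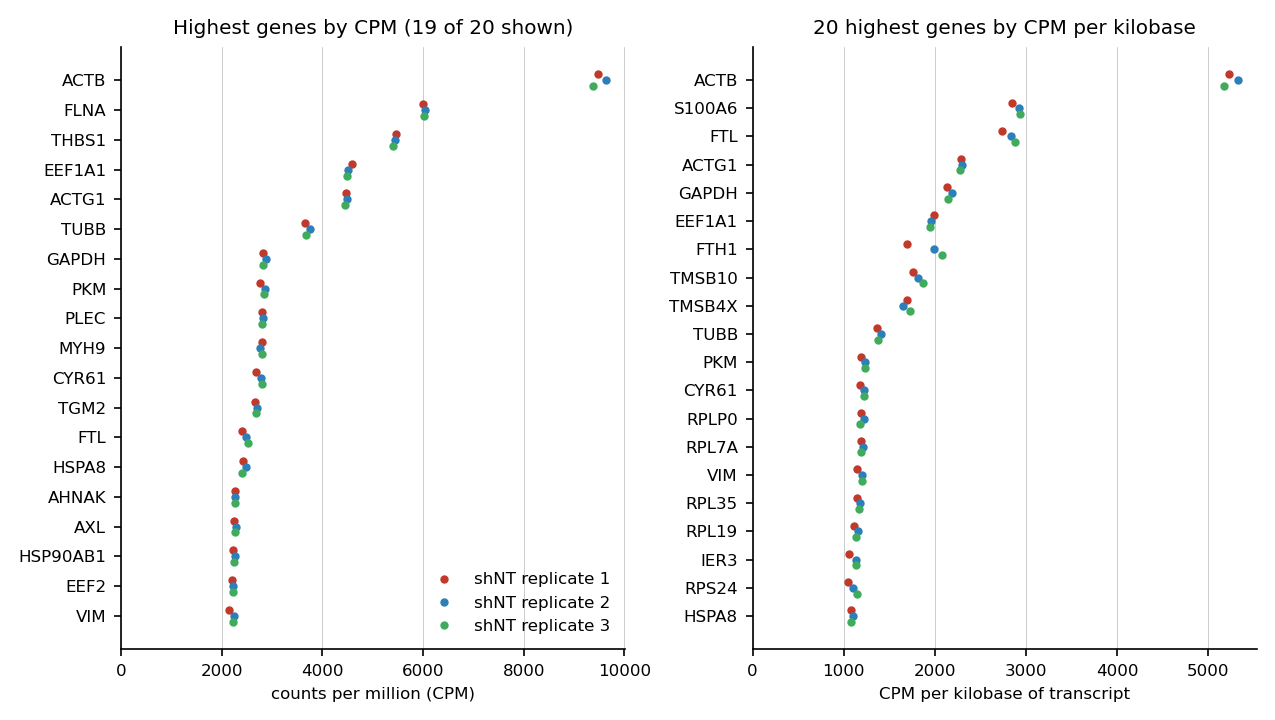
Genes among the 20 with the highest mean CPM (left, 19 shown) and the 20 with the highest mean CPM per kilobase of transcript (right), with 1 point for each shNT library. ACTB leads both lists, at 9385 to 9645 CPM, and for FTH1 replicate 1 lies below the other libraries.

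UGDH, the target of the study's other hairpins, was a gene of middle level in the control cells. It had 53.1, 55.7 and 50.4 CPM (53.1 ± 2.65), which placed it at rank 4532 of 23710 entries by mean CPM and at rank 4473 of 22302 by CPM per kilobase. All 8 genes listed for the steps around UDP-glucose and UDP-glucuronate were expressed. Per kilobase, UXS1, which converts UDP-glucuronate to UDP-xylose, was the highest at 76.3 ± 0.55 CPM per kilobase, and UGP2, which makes UDP-glucose, had 29.4 CPM per kilobase. UGDH itself had 18.2 CPM per kilobase.

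Hyaluronan synthases and UDP-glucuronosyltransferases, which consume UDP-glucuronate, were low or not counted. The hyaluronan synthases had a summed level of 2.8 CPM: HAS3 had 0.92, 1.53 and 1.45 CPM and HAS2 had 0.85, 1.70 and 1.45 CPM. Neither passed 1 CPM in all 3 libraries, and HAS1 had 2 counts in each. The 18 measured UDP-glucuronosyltransferases, the conjugating enzymes best known from liver, were all listed at 0. For the 9 UGT1A genes this number needs care, since 58.5% to 67.4% of the 76-base words in their transcripts also occur in other genes and reads from such words can be lost in counting, which was not tested. UGT2B7, with 2.2% shared words, was also at 0.

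The listed markers of the line were expressed. VIM, the mesenchymal intermediate filament protein vimentin, had 2150, 2244 and 2235 CPM and ranked 20 by CPM. CD44, the hyaluronan receptor, had 1124, 1141 and 1139 CPM and ranked 56. Their SDs were 51.9 and 9.28 CPM, and for both genes replicate 1 was the lowest library.

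The hormone receptors that define the triple-negative class were not detected at this depth. ESR1 and PGR, which encode the oestrogen and progesterone receptors, had no count in any library. FOXA1, a pioneer factor for the oestrogen receptor, also had no count. ESR2 had 5, 6 and 8 counts. ERBB2 was expressed, with 114, 121 and 117 CPM (118 ± 3.61). EGFR had 270, 275 and 271 CPM (272 ± 2.55), and NR3C1, the glucocorticoid receptor, had 196, 182 and 185 CPM. Gene copy number and protein were not measured here, so the ERBB2 value says nothing about amplification.

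Luminal keratins were expressed beside VIM. KRT8 had 618, 634 and 626 CPM, KRT18 had 410, 409 and 415, KRT7 had 420, 423 and 435, and KRT19 had 138, 135 and 136 CPM. These are keratins of simple and luminal epithelium. The basal keratins KRT5 and KRT14 had 1, 0 and 4 counts and 0, 0 and 3 counts. Of 15 luminal markers 7 were expressed and 5 had no count, ESR1, PGR, FOXA1, TFF3 and ELF5. GATA3, a luminal transcription factor, had 37.6 ± 3.11 CPM. Of 15 basal and myoepithelial markers 9 were expressed, led per kilobase, at the transcript lengths used, by EGFR and ITGA6 at 106 CPM per kilobase each. Over all protein-coding genes 60.3% were expressed, so these counts alone do not mark either list.

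Beside 60.3% of all protein-coding genes, 13 of 15 mesenchymal genes were expressed in all 3 libraries. Besides VIM, THBS1 and TGM2 they included MMP14, a membrane collagenase, at 608 ± 19.1 CPM and CAV1, the caveolar coat protein, at 920 ± 31.7 CPM. The remaining genes of the list passed 1 CPM in some libraries only: CDH2, N-cadherin, had 13, 6 and 6 counts. SPARC, a matrix protein, had 9, 12 and 8.

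Of 10 genes that are low in claudin-low tumours 7 were expressed, and of 10 that are high in them 7 as well, beside 60.3% of all protein-coding genes, so these counts do not set the lists apart. CDH1, E-cadherin, had 2, 2 and 4 counts, and CD24 had 3, 2 and 1. EPCAM had 8.37 ± 0.89 CPM, CLDN7 5.54 ± 0.54 and CLDN3 3.19 ± 0.71 CPM. CLDN4, whose low level helps to define the subtype, had 185, 185 and 175 CPM (182 ± 5.66), and held 52.0% of the summed CPM per kilobase of 21 claudins. Among the genes that are high in claudin-low tumours, TWIST1, ALDH1A1 and CXCL12 had no count.

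**Figure D2:**
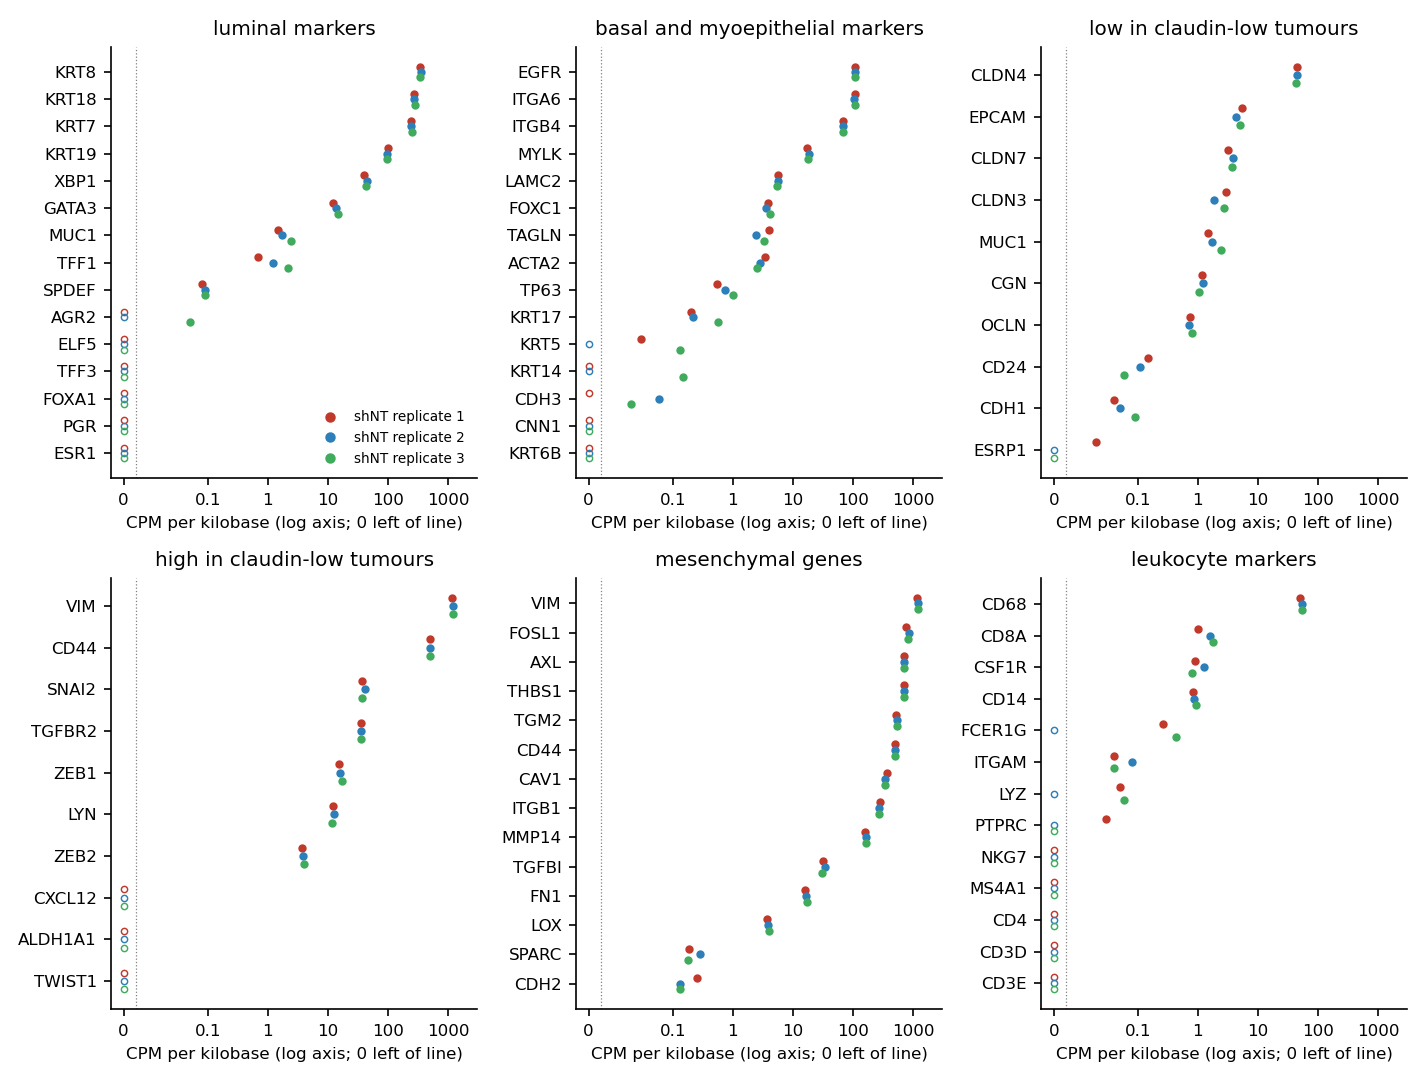
CPM per kilobase in each shNT library for genes of 6 marker lists, on a log axis with a count of 0 drawn as an open circle left of the dotted line. KRT8, KRT18, VIM and AXL lie high, CDH2 and SPARC lie low, ESR1, PGR and FOXA1 lie at 0 in all 3 libraries, and CLDN4 lies above the other genes of its list.

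Markers of other cell types were in part at or near 0, and their counts stand beside 60.3% of all protein-coding genes expressed. Of 14 leukocyte markers 4 were expressed, CD68 at 96.1 ± 3.80 CPM, CD8A at 4.16 ± 1.16, CSF1R at 3.91 ± 0.90 and CD14 at 1.54 ± 0.08 CPM. Of the 76-base words in CD68 transcripts 91.2% occur in other genes, and the part of this in its value was not tested. CD3D, CD3E, CD4 and MS4A1 had no count. The summed level of the leukocyte list was 100.2 to 109.5 CPM. Of 9 endothelial markers 2 were expressed, ESAM at 28.5 ± 3.08 CPM and KDR at 3.45 ± 0.12 CPM, while PECAM1 had 1, 3 and 0 counts and the summed level was 29.6 to 35.6 CPM. Of 11 fibroblast and stromal markers 3 were expressed, PDGFRB, COL1A1 and COL1A2, with DCN, LUM and POSTN at 0 and a summed level of 34.2 to 38.0 CPM. Of 10 melanocyte and neural markers 4 were expressed, MBP, known for its place in myelin, at 155 ± 3.63 CPM, MITF, a melanocyte factor, at 15.7 ± 1.66, GFAP at 4.33 ± 0.67 and MAP2 at 3.46 ± 0.18 CPM. SOX10 and TYR had no count, and the summed level was 177.0 to 182.8 CPM. Among 11 liver and erythroid markers only SERPINA1 was expressed, at 16.2 ± 1.79 CPM.

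To see which paralogs of a family were expressed, 65 families with 400 genes were compared per kilobase. Some of these families were grouped by role and not by duplication alone. Among them are the hormone and ERBB receptors, the EMT transcription factors and the epithelial splicing and transcription factors. In 64 of the 65 families the members summed to at least 1 CPM, and in 55 a single member held over 50% of the family's CPM per kilobase in every library. In a family with only 2 members 1 of them must hold 50% or more, so there the rule is met almost in advance. Such pairs, for example the E cyclins and CDK4 with CDK6, are among the 55. In 19 families the top member held over 90%. Of the 400 genes 221 were expressed and 104 had no count. Over all protein-coding genes 60.3% were expressed and 4478 of 18814 had no count, so these counts do not set the families apart. For 41 of the 55 families the same member dominated with all 4 choices of transcript length that were tried, plain CPM included. For the other 14 it did not, and these are named as such below. Without replicate 1 the same 55 families had a dominant member. The rule asks for over 50% in every library, so leaving out a library cannot remove a family that still sums to 1 CPM. It could only have added families.

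In glycolysis the widely used isoforms led. PKM, pyruvate kinase M, had 2756, 2854 and 2848 CPM, and PKLR, the liver and red cell isoform, had no count. ENO1 held 97.5% of enolase, with 2117, 2126 and 2117 CPM, although ENO2, the neuronal enolase, was expressed at 63.8 ± 0.72 CPM. ALDOA held 99.8% of aldolase at 792 ± 2.01 CPM. Of its 76-base words 87.5% occur in other genes, and the part of this in its value was not tested. HK1, at 357 ± 6.88 CPM, held 79.5% of hexokinase, above HK2 at 88.0 ± 3.53 CPM, and HK3 had no count. PFKP, the platelet form of phosphofructokinase, held 65.1% of its family. SLC2A1, the glucose transporter GLUT1, held 86.6% of 13 glucose transporters with 702, 712 and 691 CPM. LDHA and LDHB split lactate dehydrogenase into 73.8% and 26.2%, and 52.4% of the 76-base words of LDHB occur in other genes.

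Outside glycolysis, single members also led. EEF1A1, the translation elongation factor, held 99.3% of its family. CKB was the only creatine kinase counted, at 47.4 ± 3.97 CPM. Of the 4 others, CKMT1A and CKMT1B share 79.9% and 88.3% of their 76-base words with other genes, so their 0 is again a listed value. Cytochrome oxidase used COX4I1, COX6A1, COX6B1 and COX7A2 at mean levels of 78.9 to 124.2 CPM, while COX4I2 and COX6A2, the lung and muscle isoforms, had no count. DNMT1, the maintenance DNA methyltransferase, held 96.0%, with DNMT3A at 11.7 ± 0.79 CPM and DNMT3B at 5.74 ± 0.66 CPM.

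For 3 pairs with a widely used and a tissue-restricted member the sequence before the start was set side by side. These are the 250 bases upstream of the RefSeq start in GRCh38.p14, on the gene's strand, with each CpG dinucleotide in capitals.
PGK1, chrX:78103998-78104247 (+ strand): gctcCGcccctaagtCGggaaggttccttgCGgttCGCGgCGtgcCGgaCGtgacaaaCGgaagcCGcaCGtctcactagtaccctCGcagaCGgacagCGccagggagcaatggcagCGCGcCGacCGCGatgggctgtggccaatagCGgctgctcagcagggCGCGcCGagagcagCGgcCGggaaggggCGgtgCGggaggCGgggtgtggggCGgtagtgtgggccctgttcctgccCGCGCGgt
PGK2, chr6:49787286-49787535 (- strand): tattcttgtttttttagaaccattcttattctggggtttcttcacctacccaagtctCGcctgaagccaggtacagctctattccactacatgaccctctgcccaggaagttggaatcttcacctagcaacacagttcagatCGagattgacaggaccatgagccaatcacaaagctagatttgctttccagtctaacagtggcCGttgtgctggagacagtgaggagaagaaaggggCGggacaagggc
LDHA, chr11:18394313-18394562 (+ strand): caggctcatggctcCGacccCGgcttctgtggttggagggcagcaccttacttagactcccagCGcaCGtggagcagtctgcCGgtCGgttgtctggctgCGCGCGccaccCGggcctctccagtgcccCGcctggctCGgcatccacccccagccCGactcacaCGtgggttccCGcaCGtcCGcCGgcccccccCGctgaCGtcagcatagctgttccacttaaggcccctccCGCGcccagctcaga
LDHC, chr11:18412068-18412317 (+ strand): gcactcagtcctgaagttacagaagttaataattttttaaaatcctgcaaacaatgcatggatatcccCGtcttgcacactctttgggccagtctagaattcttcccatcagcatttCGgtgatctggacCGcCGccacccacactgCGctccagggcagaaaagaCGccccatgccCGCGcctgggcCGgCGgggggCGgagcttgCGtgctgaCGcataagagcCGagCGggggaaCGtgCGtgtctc
COX6A1, chr12:120437863-120438112 (+ strand): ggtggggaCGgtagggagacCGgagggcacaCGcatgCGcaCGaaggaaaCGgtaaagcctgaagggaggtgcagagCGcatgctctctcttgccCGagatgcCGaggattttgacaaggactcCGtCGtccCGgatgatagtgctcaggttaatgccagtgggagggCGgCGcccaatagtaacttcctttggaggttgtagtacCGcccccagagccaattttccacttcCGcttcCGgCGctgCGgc
COX6A2, chr16:31428361-31428610 (- strand): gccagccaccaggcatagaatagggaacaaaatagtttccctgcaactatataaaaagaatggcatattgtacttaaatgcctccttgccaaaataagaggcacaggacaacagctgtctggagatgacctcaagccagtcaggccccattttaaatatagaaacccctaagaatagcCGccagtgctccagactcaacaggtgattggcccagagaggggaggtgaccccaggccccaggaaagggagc

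PGK1, the phosphoglycerate kinase of most tissues, had 553, 548 and 537 CPM and PGK2, its testis copy, had no count; the windows hold 32 and 4 CpG dinucleotides. LDHA had 1536, 1528 and 1549 CPM and LDHC, another testis isoform, had no count, with 22 and 17 CpG dinucleotides. COX6A1 had 109, 109 and 114 CPM and COX6A2 had no count, with 19 and 1. LDHC thus had no count with a window close to that of LDHA in CpG number. Among genes of the paralog families with a RefSeq promoter window, 168 expressed genes had a median of 23.5 CpG dinucleotides (range 0 to 55) in 300 bases, and 71 genes with no count had a median of 4.0 (range 0 to 35).

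The same gradient ran over all protein-coding genes with a window of 250 bases before and 50 after the start. The median was 6 CpG dinucleotides for 3385 genes with no count, 12 for those counted under 1 CPM, 23 at 1 to 10 CPM, 27 at 10 to 100 CPM and 29 at 100 CPM or more. The motif TATAAA, searched on both strands, was found in 19.9%, 11.9%, 6.2%, 4.4% and 6.1% of these windows in the same order, against 9.4% of all windows. The window of COX6A2 printed above holds this motif and the other 5 do not. A match describes these letters only.

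**Figure D3:**
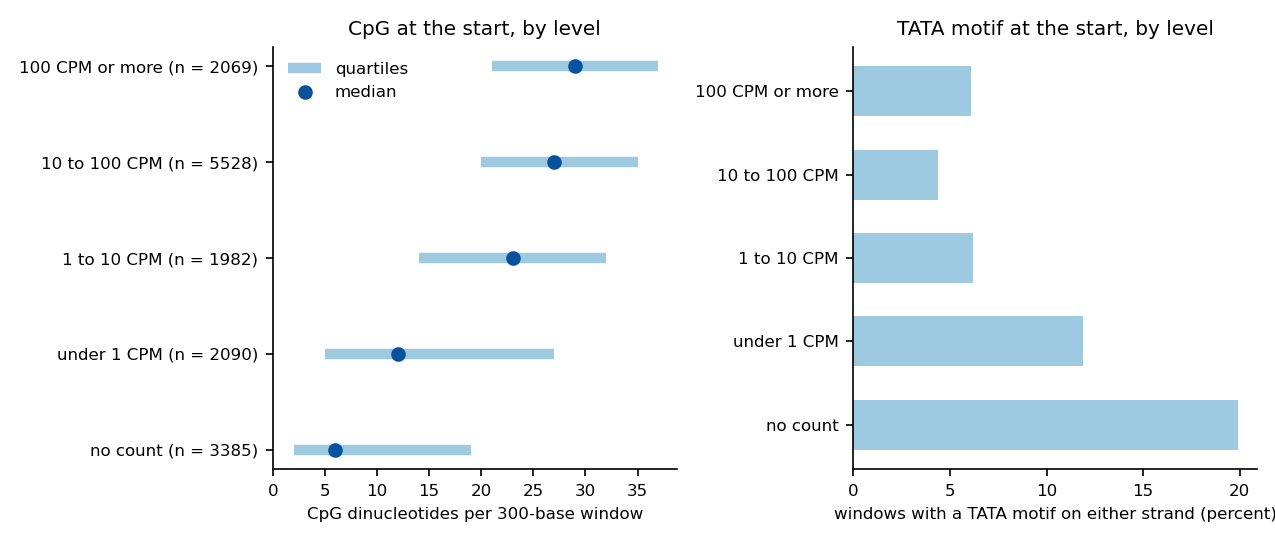
CpG dinucleotides per 300-base window around the start (left, median and quartiles) and the share of windows with a TATA motif on either strand (right), for protein-coding genes in 5 classes of mean CPM. The median CpG count rises from 6 in genes with no count to 29 at 100 CPM or more.

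Actins, beta tubulins and non-keratin intermediate filaments each had a dominant member. ACTB held 69.6% of actin and ACTG1, the other cytoplasmic actin, 30.3%, while the smooth muscle actin ACTA2 had 3.93 ± 0.62 CPM and ACTG2 no count. TUBB held 61.5% of beta tubulin, ahead of TUBB4B with 25.8%, and TUBB3, a neuronal beta tubulin also seen in tumours, had 78.8 ± 0.28 CPM. For TUBB3, 79.1% of the 76-base words occur in other genes, and the part of this in its value was not tested. VIM held 66.8% of the intermediate filaments and LMNA, lamin A/C of the nuclear envelope, 22.0%. S100A6 led 18 S100 proteins with 60.9%, and S100A4, linked to motility, had 226 ± 4.63 CPM. The inflammatory S100A8 and S100A9 had no count.

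Adhesion families also had clear leaders. CDH4, R-cadherin, held 73.7% of 19 cadherins, with 241, 235 and 232 CPM (236 ± 4.97), and CDH24 held 22.0%. CDH11, the mesenchymal cadherin, had 17.0 ± 2.00 CPM, and 10 cadherins had no count. ITGA3, a laminin-binding integrin subunit, held 69.7% of 18 alpha subunits at 1992, 2033 and 2013 CPM, followed by ITGA6 with 18.0%. ITGB1, the partner of most alpha subunits, held 71.3% of 8 beta subunits at 1007 ± 25.9 CPM, and ITGB4 held 17.9%. Of the subunits best known from leukocytes, ITGAL, ITGAX, ITGAD and ITGA4 had no count and ITGAM had 2, 4 and 2, while ITGAE had 12.8 ± 1.60 CPM and ITGB2 1.29 ± 0.25 CPM. LGALS1 held 90.3% of the galectins and CAV1 84.0% of the caveolins.

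Among receptors, AXL stood out by level. It had 2256, 2283 and 2262 CPM (2267 ± 14.04) and held 98.5% of its family with TYRO3 and MERTK. Of 58 receptor tyrosine kinases 31 were expressed and 14 had no count, beside 60.3% of all protein-coding genes expressed and 4478 of 18814 with none. After AXL, at 707 ± 4.38 CPM per kilobase, came the ephrin receptor EPHA2 at 127 CPM per kilobase, EGFR at 106, the HGF receptor MET at 52.7 and FGFR1 at 32.5. This order holds for the transcript lengths used. With the longest transcript as length, EGFR's share of the hormone and ERBB receptors fell from 57.0% to 35.2%. KIT, RET and FLT3 had no count, and PDGFRA had 1 count in all. NOTCH2 held 80.0% of the NOTCH receptors at 568, 566 and 566 CPM.

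Of 48 nuclear receptors 24 were expressed, beside 60.3% of all protein-coding genes, and 12 had no count. NR2F2, the orphan receptor COUP-TFII, led at 404, 417 and 407 CPM, and NR3C1 followed. PPARG, the adipocyte receptor, had 26.9 ± 2.90 CPM, and VDR, the vitamin D receptor, 41.4 ± 2.11 CPM. Frizzled receptors were shared out: FZD2 and FZD7 held 31.1% and 29.5%, and their levels per kilobase overlapped between libraries.

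FOSL1, AXL, MYC and TEAD1 were highest per kilobase in a ranking of transcription factor families with hormone, ERBB, NOTCH, frizzled and AXL family receptors. Other receptors were left out of it, among them CD44 at 495 and ITGA3 at 412 CPM per kilobase, both above MYC and TEAD1. The longer lists of nuclear receptors and receptor tyrosine kinases were not ranked with them. FOSL1, which encodes FRA-1, had 999, 1098 and 1085 CPM and at 807 ± 41.01 CPM per kilobase held 84.0% of the FOS family. FOS itself had 76.3 ± 4.57 CPM. Replicate 1 was the low library for FOSL1. MYC had 555, 569 and 558 CPM and held 99.9% of its family. TEAD1, a DNA-binding partner of YAP, had 405, 384 and 384 CPM and 76.7% of its family, a share that fell to 46.2% with the longest transcript as length. JUNB held 50.9% of the JUN family per kilobase, but by plain CPM JUN (211, 210 and 213 CPM) and JUNB (195, 210 and 214 CPM) overlapped.

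Epithelial and mesenchymal regulators did not fall on 1 side. SNAI2, or Slug, had 82.8, 91.6 and 83.0 CPM, and ZEB1 had 83.5, 86.6 and 91.9 CPM, and per kilobase SNAI2 led with 56.5% against 23.6%. By plain CPM their ranges overlapped. TWIST1 and TWIST2 had no count. EHF, an epithelial ETS factor, had 122, 124 and 118 CPM and held 96.2% of a list of 10 epithelial splicing and transcription factors. The rest of that list was low: ESRP2 had 7.25 ± 0.36 CPM, ELF3 had 3.36 ± 0.64 CPM, ESRP1 had 1 count in all, GRHL2 had 2, and OVOL1, OVOL2 and ELF5 had none.

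Members of the RAS and RAF families were expressed. NRAS had 272, 221 and 222 CPM, and HRAS had 68.2, 70.3 and 63.5 CPM. Per kilobase HRAS and NRAS overlapped between libraries, at 61.2 ± 3.17 and 53.6 ± 6.52 CPM per kilobase. BRAF had 17.7, 22.0 and 20.2 CPM. Per kilobase it was the lowest RAF kinase, at 3.09 CPM per kilobase, against 55.9 for ARAF. Which allele was expressed was not measured here.

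The cell cycle families showed both leaders and near ties. CCND1 held 74.4% of D cyclins at 1073, 1049 and 1002 CPM, and CCND2 had 3 counts in all. CDK4 held 83.1% over CDK6. CCNE1 and CCNE2 stood at 52.3% and 47.7% per kilobase, and by plain CPM CCNE2 was the higher. BCL2L1, which encodes the survival protein BCL-XL, held 74.1% of its family at 867 ± 14.1 CPM, against 16.4 ± 0.24 CPM for BCL2. RB1 was expressed at 104 ± 9.19 CPM, next to RBL1 at 107 ± 0.80 CPM, and the pocket proteins had no dominant member.

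Besides TEAD1, SNAI2, JUNB and CCNE1, the member that led per kilobase depended on the transcript length used for EGFR, ARAF, AKT1, PIK3CB, CDKN2D, IDH1, TMSB10, ANXA2, HAS3 and VEGFA, or did not keep over 50%. No dominant member was found in 9 families: keratins, RAS GTPases, RB pocket proteins, STAT factors, GATA factors, tetraspanins, class I HLA heavy chains, frizzled receptors and multidrug ABC transporters. Among the last, ABCC1 had 180 ± 6.58 CPM and ABCB1, which encodes P-glycoprotein, had no count. The absence of a dominant member also depended on length. By plain CPM NRAS held 52.2% of the RAS GTPases and ABCC1 52.3% of the multidrug ABC transporters, both dominant. With the median over all basic transcripts 1 other of the 9 families had a dominant member. The class I HLA genes are near-identical copies, so how reads split between them is uncertain.

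**Figure D4:**
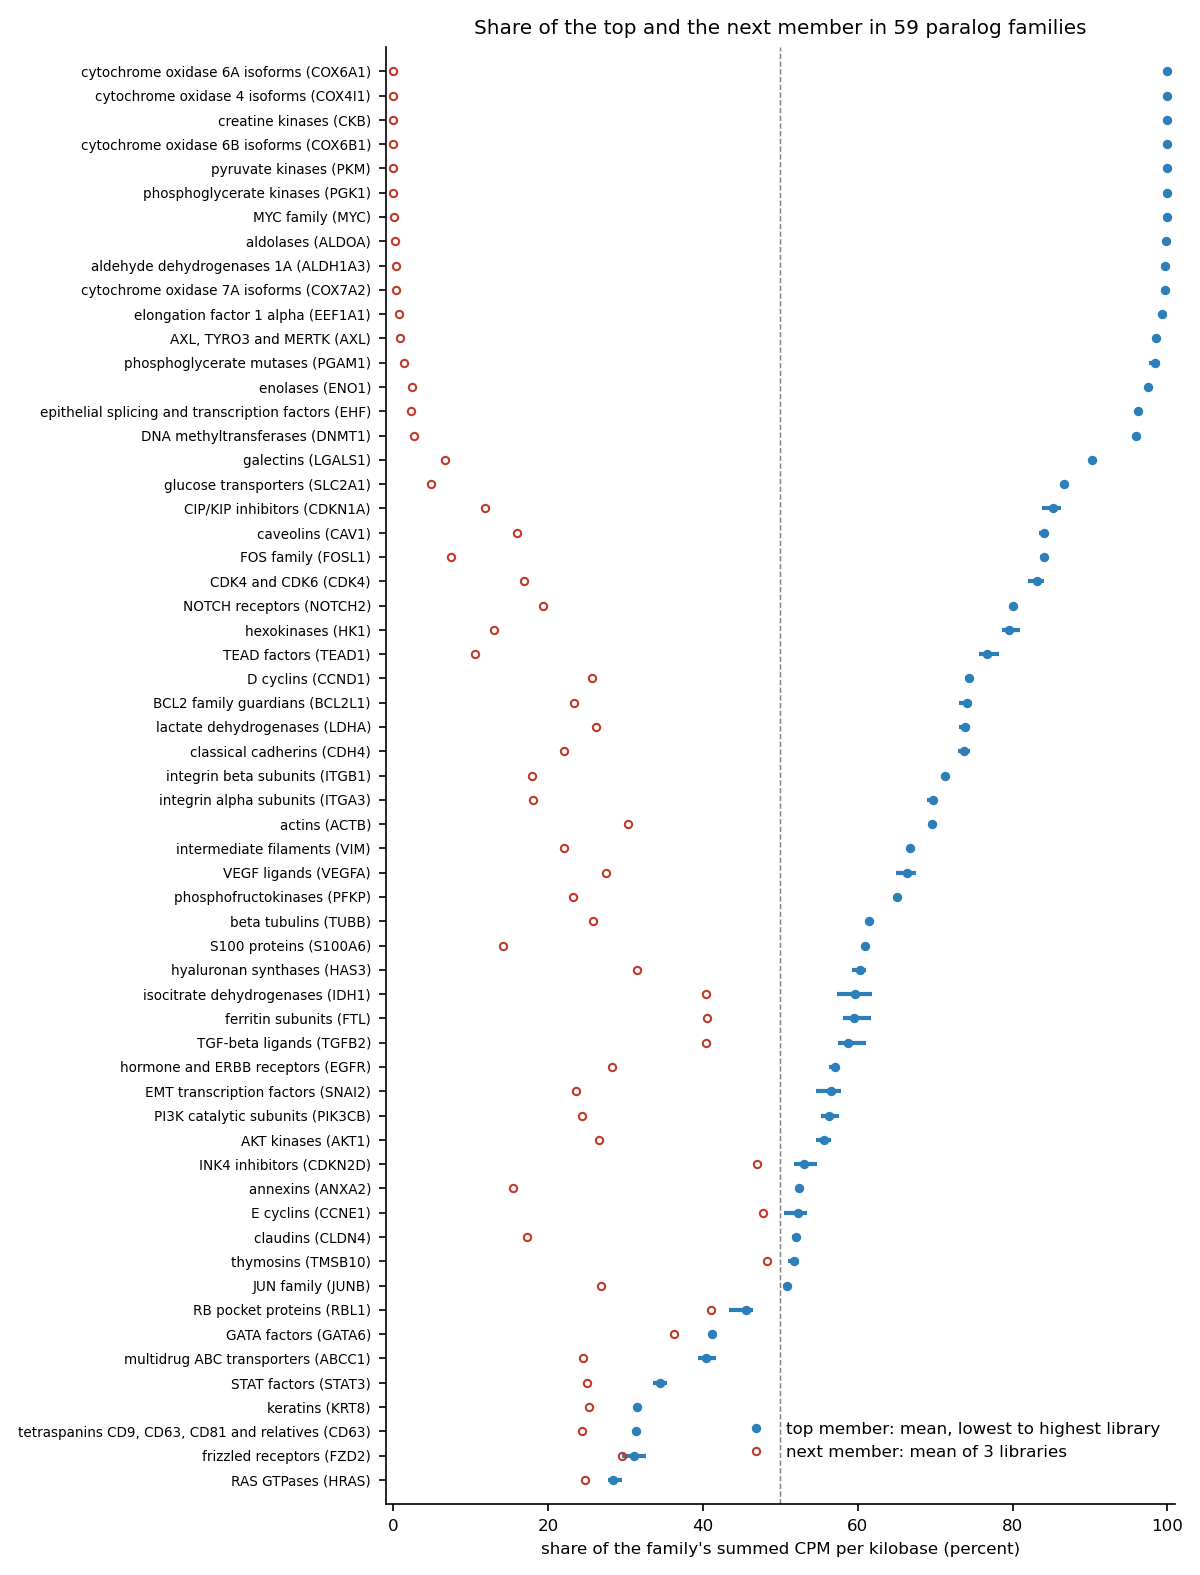
Share of each family's summed CPM per kilobase held by its top member (filled, mean with the lowest and highest library) and by the next member (open, mean), for 59 families. In 51 of these the top member lies right of the 50% line in every library, and the lowest share is that of HRAS at 28.4%.

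The INK4 inhibitors of CDK4 and CDK6 led to a run of silent neighbours on chromosome 9. CDKN2A and CDKN2B, which encode p16 and p15, had no count, while CDKN2C had 48.7, 52.0 and 51.6 CPM and CDKN2D had 35.3, 34.6 and 33.1 CPM. In the RefSeq gene order of GRCh38.p14, CDKN2A and CDKN2B lie within 24 consecutive measured protein-coding genes that all had no count, from PTPLAD2 to IZUMO3. Of these 16 are type I interferon genes, which are seldom transcribed at rest. KLHL9, a ubiquitin ligase adaptor, and MTAP, the methionine salvage enzyme, are broadly expressed genes in that run, and 0% and 6.4% of their 76-base words occur elsewhere.

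Expressed genes lay on both sides of the run. On the PTPLAD2 side MLLT3 had 17.5 ± 0.37 CPM and FOCAD had 27, 17 and 28 counts (1.97 ± 0.48 CPM), and beyond IZUMO3 TUSC1 had 168, 166 and 154 counts (13.4 ± 0.64 CPM). In the 6 libraries with UGDH hairpins the 24 genes had 10 counts in all, 5 of them in CDKN2A, 4 in KLHL9 and 1 in CDKN2B. The run was not the longest. On the autosomes and X, 6 runs held more genes and 2 others held 24, and the longest, 61 genes on chromosome 11, was mainly of olfactory receptor genes. The run was looked at after CDKN2A, CDKN2B and MTAP were seen at 0, and DNA was not measured here.

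Tissue-restricted families were largely not counted. None of 397 olfactory receptor genes was expressed, and 383 had no count. All 48 defensins and all 22 GAGE genes had no count. Of 91 keratin-associated protein genes only KRTAP2-3 passed, with 1.80 ± 0.43 CPM. The HOX clusters, which carry positional identity, were largely off: in HOXA 10 of 11 genes had no count and HOXA13 had 4, 11 and 9, and no HOXC gene was expressed. In HOXB, HOXB9 had 18.6, 17.6 and 17.2 CPM and HOXB3 had 6.01, 4.17 and 4.52 CPM. In HOXD, HOXD4 had 3.62 ± 0.18 CPM and HOXD3 had 2.50 ± 0.58 CPM. Of the 76-base words of HOXD4 and HOXD3, 74.1% and 91.8% occur in other genes, and the part of this in their values was not tested.

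Some of the zeros belong to genes that every cell uses. Of 77 cytosolic ribosomal protein genes, RPLP0 had the highest mean at 1506 CPM, while RPL21 was listed at 0. RPL36A had 5.99 ± 0.49 CPM, RPL17 22.96 ± 0.76 and RPS10 29.7 ± 1.94 CPM. The 7 ribosomal protein genes under 100 CPM shared a median of 56.8% of their 76-base words with other transcripts (range 24.2% to 93.0%), against 8.7% for the other 70. The part of shared words in these low values was not tested. Among the 104 family members with no count, 14 shared at least 50% of their words: the 9 UGT1A genes, CKMT1A, CKMT1B, LGALS7, LGALS7B and ANXA8. Of the others named above, ESR1, PGR, PGK2, PKLR, LDHC and COX6A2 shared 0.0%.

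Of the long non-coding RNAs listed, 7 of 10 were expressed. NEAT1, the scaffold of paraspeckles, had 347, 323 and 346 CPM, and MALAT1, a nuclear speckle RNA, had 287, 187 and 192 CPM. HOTAIR and MEG3 had no count. SNHG1, GAS5 and DANCR lay between 39.0 and 62.8 CPM.

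Replicate spread was small for most genes. Over 9238 genes with a mean of at least 10 CPM the median coefficient of variation (CV, SD divided by mean) was 3.95%, and 9 genes in 10 lay under 9.12%. Without replicate 1 the median was 2.83%, from 2 libraries. The variance ratio, the variance between libraries over that of counting alone, had a mean of 1.87, and for 1520 genes (16.5%) it passed 3.0, a limit that counting alone passes in 5.0% of genes. The share over the limit rose with level, from 6.8% at 1 to 10 CPM through 13.5% and 23.5% to 58.0% of 69 genes at 1000 CPM or more. The genes at 1000 CPM or more had the smallest median CV of these classes, 1.45%, and the largest share over the limit.

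The genes with the highest variance ratios split by library. FTH1, the ferritin heavy chain, had 1739, 2047 and 2134 CPM and the highest ratio, 273. MALAT1 came next with a ratio of 178, and it was high in replicate 1. NRAS, TMED7 (71.6, 46.2 and 48.3 CPM), ATP13A3 and SRP9 were also high in replicate 1, and PFN1, C20orf24 and FOSL1 were low in it. RPL23A had 458, 492 and 546 CPM, with replicate 1 the lowest and replicate 3 the farthest from the middle value. Over the genes past the limit, replicate 1 was the library farthest from the others for 840, and it was the higher in 538 of these and the lower in 302. Replicates 2 and 3 were farthest for 354 and 321. The part of base composition in these differences was not tested.

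**Figure D5:**
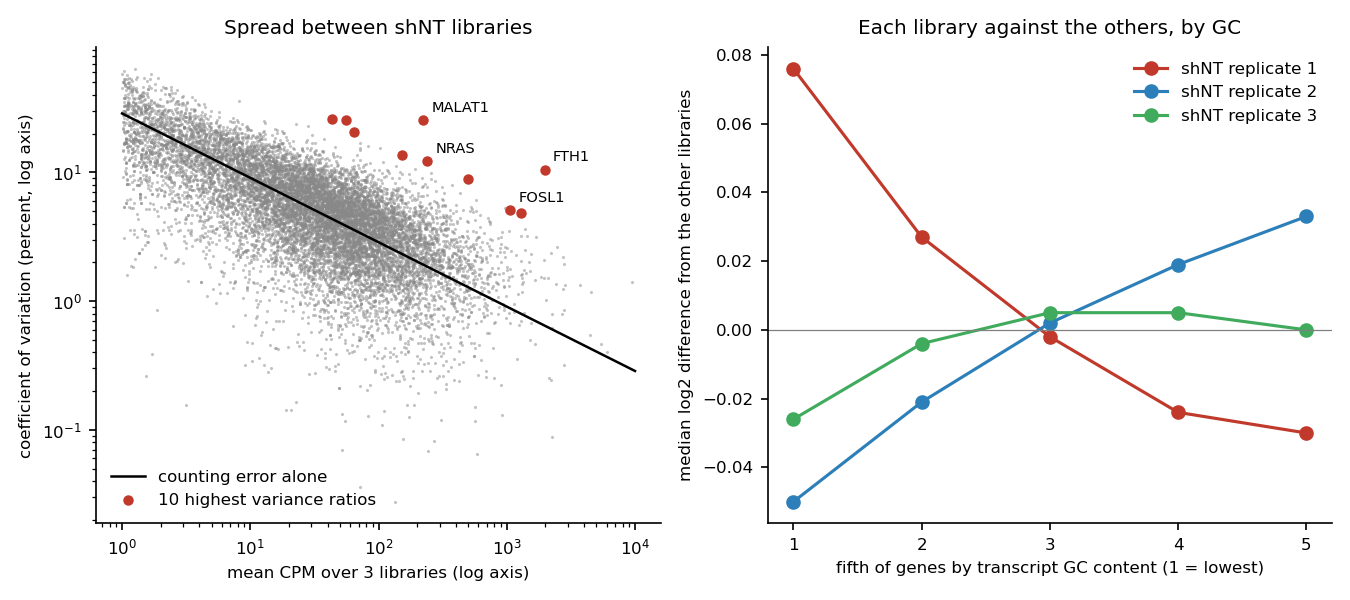
Left: CV over the 3 shNT libraries against mean CPM, 1 point per gene with a mean of 1 CPM or more, with the line that counting alone gives and the 10 genes of highest variance ratio in red. Right: median log2 difference of each library from the other libraries in 5 classes of transcript GC content, where replicate 1 runs from 0.076 to -0.030.

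Genes used as references in PCR differed in steadiness. GAPDH had the lowest CV of 18, 1.3%, with 2817, 2887 and 2828 CPM, and ACTB and PPIA followed at 1.4%. TBP had the highest, 7.8%, with 33.0, 33.7 and 29.1 CPM, but its variance ratio of 2.28 was lower than that of ACTB, 21.9. At the other end of the scale, GATAD2B had 71.1, 71.2 and 71.2 CPM and ENPP1 had 135.4, 135.5 and 135.5 CPM, the lowest variance ratios of the 9238 genes.

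Tumour suppressor and DNA repair genes completed the listed sets. Of 18 genes 17 were expressed, beside 60.3% of all protein-coding genes, and MTAP had no count. BRCA1 had 73.2, 68.6 and 70.7 CPM, and BRCA2 had 52.7, 43.9 and 47.1 CPM. KEAP1, a sensor of oxidative stress, was the highest per kilobase, at 52.3 CPM per kilobase. NF2, a regulator of the Hippo pathway, had 14.5 ± 0.87 CPM.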

How the data were processed

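RNA was sequenced from 9 libraries of MDA-MB-231 cells, of which the 3 shNT libraries were used. The authors deposited 1 table of raw gene counts. STAR, DESeq, DESeq2 and hg19 are named in the submitters' processing notes. The tool that counted reads, its annotation and its strand setting were not given in the sources used here. Entries whose symbols had turned into dates (28, 0.235% of counts) stayed in the column sums and went unnamed.

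Counts were divided by column sums to give CPM (Python 3.11.15, pandas 2.3.3). Ranks by plain CPM are shares of counts, which rise with transcript length. To compare levels between genes, CPM per kilobase was used, with the median length of CCDS-tagged basic transcripts of GENCODE 29 (22302 genes, 99.32% of counts). That annotation is on GRCh38, so lengths may differ from those the authors counted on. A gene was called expressed at 1 CPM or more in all 3 libraries, and dominant with over 50% of its family's summed CPM per kilobase in every library, in families that sum to at least 1 CPM. The share of 76-base words found in other genes was taken every 10 bases of the GENCODE transcripts. RefSeq (GRCh38.p14) gave promoter windows for 15989 genes and the gene order on chromosome 9.

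No test between groups was made. The spread statistics and the dominance rule were tested on simulated data. Scaling by TMM (edgeR 4.0.16) and by DESeq2 1.42.0 size factors, other limits, other lengths and leaving out each library were tried. The genes named are UGDH, VIM, CD44 and ACTB, the 20 highest by CPM and by CPM per kilobase, the top, next and uncounted members of each family, members of the marker and other lists, the 10 highest and 10 lowest variance ratios, and reference genes by CV. Members and lists were chosen with earlier results of these data known. The lists of receptor tyrosine kinases, nuclear receptors and long non-coding RNAs, the families found by name pattern (HOX, olfactory receptors, ribosomal proteins and the like) and the chromosome 9 run were added after the values were seen. Some genes and families are not reported here, in the text or the figures.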

Additional observations from a re-analysis of the deposited data

How the results depend on the processing

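The numbers of expressed genes, of genes with no count and of families with a dominant member stayed within 1.5 times their value under every alternative tried, except that 35 instead of 55 families had a dominant member when more than 2 in 3 of the sum was required, all 35 of them among the 55. Expressed genes numbered 10197 at a limit of 5 CPM and 12472 at 0.5 CPM, and genes with a summed count of 3 or fewer numbered 9241. The share of the 100 most abundant genes was 16.95% without ribosomal protein genes (no mitochondrially encoded gene was among the gene names). The median CV was 4.96% over genes of 1 CPM or more and 2.30% over genes of 100 CPM or more, and 2.83% to 3.33% with 1 library left out. The longest transcript gave 51 dominant members, plain CPM 49, and the median over all basic transcripts, an alternative chosen after seeing the data, 51. TMM factors lay between 0.9995 and 1.0005, and no named gene at 1 CPM or more moved by over 1.5 times under TMM, DESeq2 size factors or with 1 library left out. Scaled library sizes lay close to the column sums (by DESeq2 13000687 against 12988061 in replicate 1), so scaling could hardly move a level. Leaving out 1 of 3 libraries cannot raise a mean by over 1.5 times, so there the limit could be passed only by a fall. No paired analysis was possible because only 1 group is described and no result comes from a test. With 3 libraries each SD is imprecise, and under about 1 CPM, or about 13 counts in replicate 1, counting error is large. At 1 to 10 CPM the mean variance ratio was 1.16, and it was not summarised for genes under 1 CPM.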
